A study of Mus musculus with 6 samples.

Results

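The mitochondrially encoded transcripts are the RNAs made from the small circular chromosome inside mitochondria. They were taken from the deposited table of changed genes as the rows whose symbol starts with mt-, in upper or lower case. The rule found 3 of the 398 rows, *mt-Nd1*, *mt-Rnr2* and *mt-Co2*. The GENCODE annotation of GRCm38 (release M21) places all 3 on the mitochondrial chromosome, so the label holds. That chromosome carries 37 annotated genes, of which 13 encode proteins, 2 encode rRNAs and 22 encode tRNAs. The table therefore holds 2 of the 13 protein genes, 1 of the 2 rRNA genes and 0 of the 22 tRNA genes. Beside this, 0.712% of all annotated nuclear genes and 1.49% of nuclear protein-coding genes had a row, shares that take no account of level. The other 34 mitochondrial genes have no row, and no value for them was analysed here.

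Muscle stem cells (MuSCs) are the resident stem cells of skeletal muscle. In mice of 6 to 8 wk, they were sorted for 3 libraries of each genotype, QKI-ctrl and QKI-cKO, as ITGA7-positive cells without the CD45, CD11b and Sca1 markers, and grown for 72 h before polyadenylated RNA was sequenced. All mice carried loxP sites around exon 2 of the gene for the RNA-binding protein QKI on both alleles, on a C57BL/6 background, and all received 4-hydroxytamoxifen for 5 d, with experiments 10 d after the last injection. QKI-cKO mice (labelled KO) also carried 1 Pax7-CreERT2 allele, which drives the recombinase from the *Pax7* promoter in MuSCs, and QKI-ctrl littermates (labelled WT) did not. Effects of the Cre allele and of QKI loss cannot be told apart in this design. The deposited table gives 1 FPKM value (mapped fragments scaled to transcript length and to library size, here on geometric means over the libraries) per gene and group, pooled by the authors over the libraries of a group. No SD, interval or test between replicates could therefore be given, the depth is unknown, and every value below is such a pooled value. The 2 value columns carry no group name. The first was taken as QKI-ctrl because the paper describes *Myl1*, *Myl4*, *Myh3*, *Sspn* and *Mybph* as lower in QKI-cKO, and all of them are lower in the second column. *Qk* itself had 128 FPKM in QKI-ctrl and, in QKI-cKO, 262 FPKM, but its remaining exons are counted too, so its level does not check the labels.

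Mitochondrial DNA is transcribed from both strands as long RNAs that run through many genes. In these precursors tRNAs stand between most rRNAs and mRNAs, and cutting the tRNAs out at both ends releases the neighbours on either side. The rRNAs and nearly all mRNAs then receive A tails within the mitochondrion, whereas tRNAs receive only a terminal CCA, so a library made from polyadenylated RNA is not designed to hold tRNAs. All proteins made from this chromosome are subunits of the respiratory chain and ATP synthase, and its rRNAs form the core of the mitochondrial ribosome. Proliferating MuSCs draw more on glycolysis than differentiated muscle, which is rich in mitochondria.

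Of the 3 members, *mt-Rnr2* and *mt-Nd1* are neighbours. *mt-Rnr2* lies at chrM:1094-2675 and *mt-Nd1* at chrM:2751-3707, both on the plus strand of GRCm38, and only the leucine tRNA gene *mt-Tl1* stands between them without a spare base on either side. The stretch below, rebuilt from the annotated transcripts, shows how tightly they are packed, with the last 30 bases of *mt-Rnr2* and the first 30 of *mt-Nd1* in lower case and *mt-Tl1* in capitals (chrM:2646-2780, plus strand).
mt-Rnr2/mt-Tl1/mt-Nd1: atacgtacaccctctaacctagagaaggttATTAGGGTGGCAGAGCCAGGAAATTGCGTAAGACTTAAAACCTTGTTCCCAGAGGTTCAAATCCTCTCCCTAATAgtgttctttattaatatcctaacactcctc

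*mt-Co2* lies farther along at chrM:7013-7696. Mitochondrial DNA has been copied into nuclear chromosomes many times, and a read from a mitochondrial gene cannot be told from a read of an identical nuclear copy. The first 90 bases of *mt-Co2* are shown with the same bases of its 2 closest annotated nuclear copies, *Gm28661* (chr1:24615476-24615565, minus strand) and *Gm13341* (chr2:22587873-22587962, minus strand). Capitals mark bases that differ from *mt-Co2*, and there are 0 in *Gm28661* and 2 in *Gm13341*.
mt-Co2: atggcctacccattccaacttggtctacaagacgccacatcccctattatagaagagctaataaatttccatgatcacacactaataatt
Gm28661: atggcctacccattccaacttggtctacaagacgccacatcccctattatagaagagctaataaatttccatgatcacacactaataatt
Gm13341: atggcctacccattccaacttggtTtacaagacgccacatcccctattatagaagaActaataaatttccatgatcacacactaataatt

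For *mt-Nd1* and *mt-Rnr2* the closest annotated nuclear copies were more distant. The most similar 90 bases of *mt-Nd1* (chrM:3394-3483) differ at 9 bases from *Gm48258* (chr12:59262674-59262763, plus strand), and those of *mt-Rnr2* (chrM:2072-2161) differ at 3 bases from *Gm20594* (chr6:79818253-79818342, plus strand). They are printed to show how the reads of both genes can be told from these annotated copies, and capitals mark the bases that differ.
mt-Nd1: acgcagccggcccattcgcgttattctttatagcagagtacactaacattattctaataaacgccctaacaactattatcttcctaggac
Gm48258: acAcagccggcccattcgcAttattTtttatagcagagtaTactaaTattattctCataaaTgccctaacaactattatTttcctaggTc
mt-Rnr2: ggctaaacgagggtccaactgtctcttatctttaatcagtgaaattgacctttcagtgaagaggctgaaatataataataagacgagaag
Gm20594: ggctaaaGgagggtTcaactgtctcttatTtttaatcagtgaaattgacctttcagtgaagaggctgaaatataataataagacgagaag

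The levels of the 3 members were lower in QKI-cKO than in QKI-ctrl. Of all 398 rows, 170 (42.7%) were lower in QKI-cKO and 228 were higher, and this share is the background for the members' count. Among the 342 rows that reached 1 FPKM in either group the share was 41.5%, and without the members and 7 nuclear copies of mitochondrial genes described further on, it was 41.2%. The authors had marked every row of the table as changed, so the comparison is one of direction among changed genes and not of changed with unchanged genes.

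*mt-Nd1* (ENSMUSG00000064341.1) encodes a subunit in the membrane arm of NADH dehydrogenase, complex I of the respiratory chain. Its level was 4135 FPKM in QKI-ctrl, and in QKI-cKO it was 3209 FPKM, which is 22.4% lower, with a log2 ratio of QKI-cKO over QKI-ctrl of -0.37. It had the highest level of the 398 rows in both groups. The next in QKI-ctrl were *Rps2*, a protein of the cytosolic ribosome, at 2185 FPKM, the calcium-binding protein gene *S100a4* at 1492 FPKM, *Gm10076* at 1217 FPKM and *CT010467.1* at 1002 FPKM. Of these 4 rows, only *CT010467.1* was lower in QKI-cKO. The table gives *mt-Nd1* a locus of chrM:2751-3842, which runs past the gene through *mt-Ti* and *mt-Tq*, the isoleucine and glutamine tRNA genes after it. Which reads of that stretch were counted for *mt-Nd1* is not given in the sources used here.

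*mt-Rnr2* (ENSMUSG00000064339.1) encodes the 16S rRNA of the large subunit of the mitochondrial ribosome. QKI-ctrl MuSCs held 343 FPKM of it, and QKI-cKO MuSCs held 267 FPKM, which is 22.3% lower (log2 ratio -0.36). It ranked 9 among the 398 rows in QKI-ctrl and 11 in QKI-cKO. The log2 ratios of *mt-Nd1* and *mt-Rnr2* were thus equal to within 0.01. On the FPKM scale, which takes length into account, *mt-Nd1* stood 12.05 times above *mt-Rnr2* in QKI-ctrl and 12.04 times in QKI-cKO, so the relation between these adjacent genes was nearly the same in both pooled values. Without replicates there is no error to set this against.

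A nuclear row annotated as rRNA, *CT010467.1* on chromosome 17, was lower in QKI-cKO too, at 742 FPKM against 1002 FPKM in QKI-ctrl (log2 ratio -0.43). The part of poly(A) selection in the differences of these rRNA rows was not tested.

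*mt-Co2* (ENSMUSG00000064354.1) encodes a copper-carrying subunit of cytochrome c oxidase, complex IV, which takes up electrons from cytochrome c. It was measured at 13.7 FPKM in QKI-ctrl, against 9.08 FPKM in QKI-cKO, which is 33.6% lower (log2 ratio -0.59). Of the 3 members it had the lowest level and the largest relative difference. On the FPKM scale *mt-Nd1* stood 302 times above it in QKI-ctrl and 353 times in QKI-cKO, although both genes are read from the same strand. *mt-Co2* was the only member lower by at least 1.5-fold, a limit passed downwards by 26.6% of the 398 rows. It did so narrowly, at 1.51-fold. With a pseudocount of 1 FPKM 0 of the 3 members passed, beside 12.1% of rows. With the median log2 ratio of the table subtracted all 3 did, as did every lower row (42.7% of rows). That setting therefore could not set the members apart from other lower rows.

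**Figure D1:**
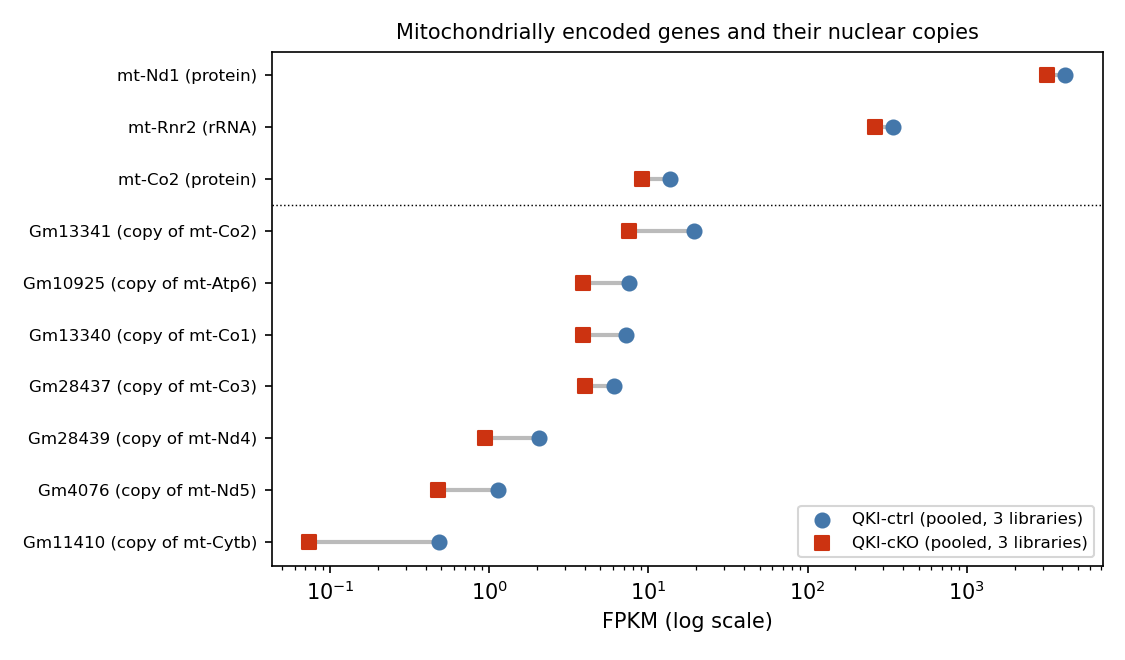
Pooled FPKM (log scale) of the 3 mitochondrially encoded genes above the dotted line and of 7 annotated nuclear copies below it, with a blue circle for QKI-ctrl and a red square for QKI-cKO. Each red square lies left of its blue circle, and *mt-Co2* (13.7 and 9.08 FPKM) lies near the copies rather than near *mt-Nd1* (4135 and 3209 FPKM).

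Among the 170 lower rows, ordered from the largest fall in log2 ratio to the smallest, *mt-Co2* ranked 104, *mt-Nd1* ranked 153 and *mt-Rnr2* ranked 154. The median log2 ratio of the 167 lower rows with a value above 0 in both groups was -0.67, so all 3 members lay on the side of the smaller differences. In either group, 100 FPKM was reached by 31 rows, of which 9 (29.0%) were lower in QKI-cKO. *mt-Nd1* and *mt-Rnr2* are 2 of these 9, which also include *Gpx8*, *Snhg5*, *Hmox1*, *CT010467.1*, *Pdpn* and *Itga7*.

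**Figure D2:**
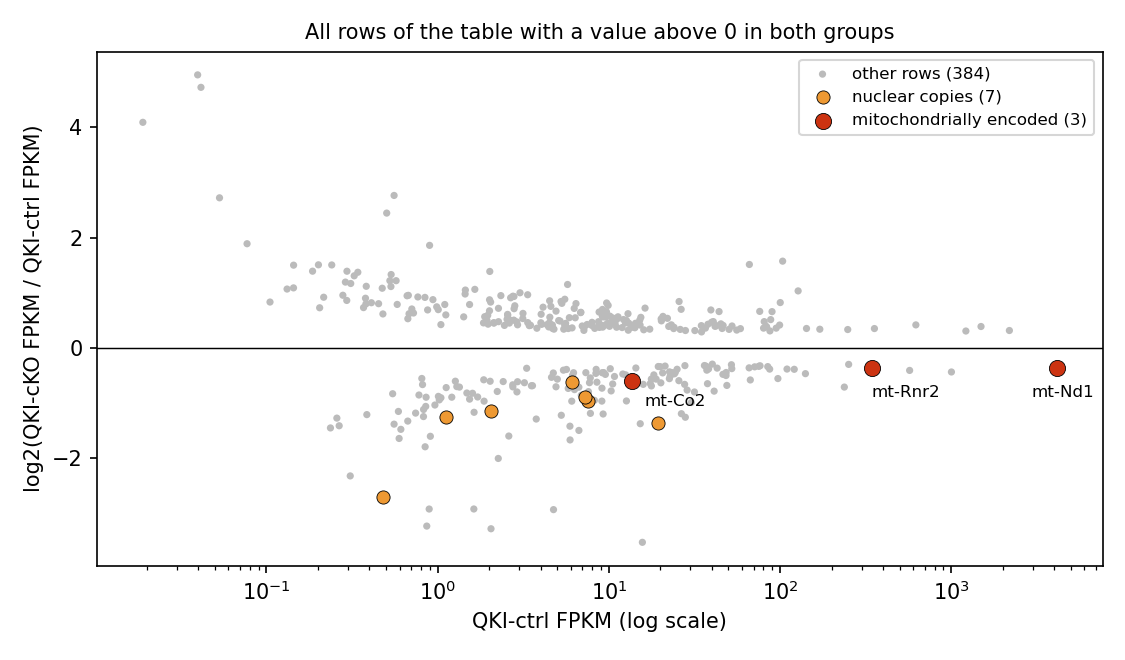
log2 ratio of QKI-cKO over QKI-ctrl FPKM against the QKI-ctrl FPKM (log scale) for the 394 rows with a value above 0 in both groups, with mitochondrially encoded genes in red and their nuclear copies in orange. *mt-Nd1* is the rightmost point, and *mt-Nd1* and *mt-Rnr2* lie at log2 ratios of -0.37 and -0.36.

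Members were left out of the search for the rows closest to each member in log2 ratio, so all rows found were nuclear. For *mt-Rnr2* and for *mt-Nd1* they were the same 3 rows, *Fam136a*, *Slc30a1* and *Agrn*, with log2 ratios from -0.37 to -0.36 and QKI-ctrl levels of 42.9, 3.31 and 14.4 FPKM. For *mt-Co2* they were *Gm6192* (-0.59), *Snap47* (-0.59) and *Plxdc1* (-0.60). *Gm6192*, a processed pseudogene, also had nearly the same level as *mt-Co2*, at 13.7 and 9.08 FPKM. The log2 ratio of *mt-Nd1* minus that of *mt-Rnr2* was -0.0015. *Slc30a1* lay closer to *mt-Nd1* than this, at a distance of 0.0007, and *Fam136a* lay closer to *mt-Rnr2*, at 0.0008. The other distances of the 3 rows from these members were larger, from 0.0022 to 0.0043. With only 2 values a row, likeness of this kind is a description and says nothing about a common origin.

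How far each gene can be told from nuclear copies was measured on the annotated sequences. Every run of 100 bases, the read length of the study, was taken from each mitochondrial gene and searched in the transcripts of all nuclear genes on both strands. For *mt-Nd1* 0 of 858 windows and for *mt-Rnr2* 0 of 1483 windows had an exact copy. For *mt-Co2* 582 of 585 windows (99.5%) had one. The members thus fall into genes without an exact match in annotated nuclear transcripts and a gene whose reads almost always have one. Nuclear copies without annotation were not searched, so a count of 0 does not show that a gene has no such copy. Of the 15 genes for proteins and rRNAs, 7 had no window with an annotated copy, and 2 of those 7 are in the table. In another 5 genes, *mt-Co2*, *mt-Atp6*, *mt-Co3*, *mt-Nd3* and *mt-Nd4l*, over 95% of windows had a copy, and only *mt-Co2* of them is in the table. The sources used here do not give how reads with several matches were shared out, and the part of this in the low level of *mt-Co2* was not tested.

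**Figure D3:**
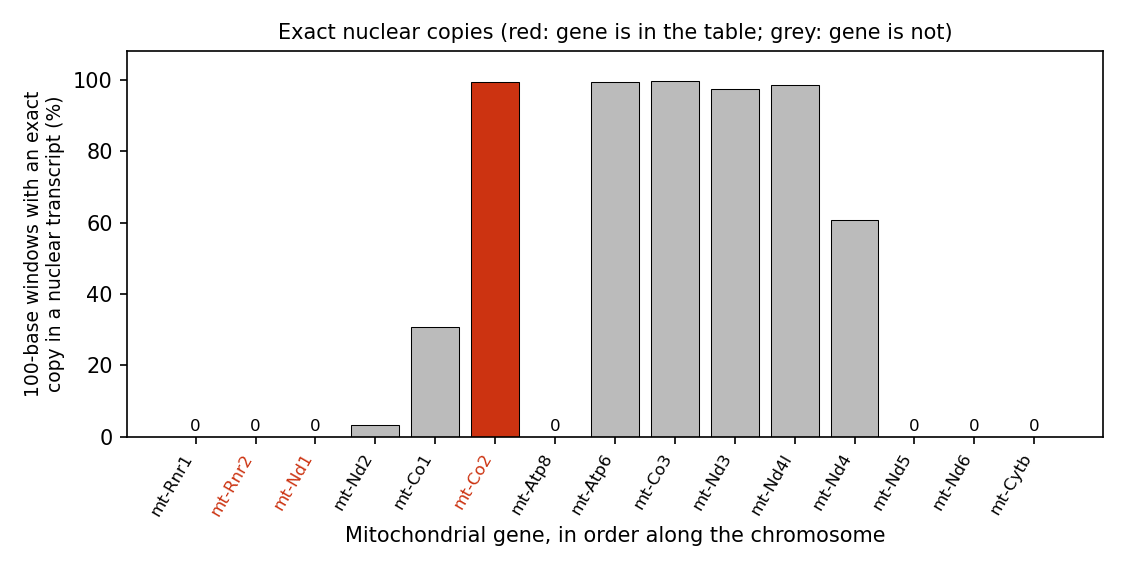
Percentage of 100-base windows with an exact copy in an annotated nuclear transcript, for the 15 mitochondrial protein and rRNA genes in their order along the chromosome. Red marks genes in the table, with *mt-Co2* at 99.5% and *mt-Rnr2* and *mt-Nd1* at 0.

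The copies themselves also appear in the table. Of all annotated nuclear genes, 16 have a transcript that aligns to the mitochondrial genes with at least 90% identity over at least 50% of its length, and 7 of these are in the table. Among all 55499 annotated nuclear genes, 395 (0.712%) had a row, and the share among annotated pseudogenes alone was not computed. All 7 copies were lower in QKI-cKO, by 34.4% to 84.6%, with a median log2 ratio of -1.14. The 30 other pseudogene rows of the table give the background for this count, since all 7 are annotated as pseudogenes. Of those 30, 26 (86.7%) were lower as well, so the direction of the copies is close to that of the other pseudogenes. The median log2 ratio of the 27 other pseudogene rows above 0 in both groups was -0.71, a smaller difference than the -1.14 of the copies, and this gap was not tested.

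Of the 7 rows, 3 come from a single stretch of chromosome 1 of 4663 bases (chr1:24611535-24616197), which holds 7 annotated copies. They align without a mismatch to mitochondrial genes that have no row of their own. *Gm10925*, identical over 678 bases to *mt-Atp6*, a subunit of the proton channel of ATP synthase, was listed at 7.59 FPKM in QKI-ctrl and at 3.90 FPKM in QKI-cKO. *Gm28437* matches the *mt-Co3* subunit gene of complex IV over 783 bases and was listed at 6.08 and 3.99 FPKM. *Gm28439* matches the complex I subunit gene *mt-Nd4* over 876 bases and was listed at 2.06 and 0.935 FPKM. For these rows, reads from the mitochondrial gene and from the nuclear copy cannot be told apart by sequence. The chromosome 1 copy of *mt-Co2* shown above, *Gm28661*, lies in the same stretch and is identical over 681 bases, but has no row.

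The remaining 4 copies differ from their mitochondrial counterparts. *Gm13341*, 95.9% identical to *mt-Co2*, was listed at 19.4 FPKM in QKI-ctrl and at 7.60 FPKM in QKI-cKO, so that it stood above *mt-Co2* in QKI-ctrl and below it in QKI-cKO. *Gm13340*, its neighbour on chromosome 2, is 97.6% identical to *mt-Co1*, the catalytic subunit gene of complex IV, and changed from 7.26 to 3.91 FPKM. *Gm4076* on chromosome 13 is 95.2% identical to part of the complex I subunit gene *mt-Nd5* and was listed at 1.13 and 0.475 FPKM. *Gm11410* on chromosome 4 is 92.9% identical to *mt-Cytb*, the cytochrome b gene of complex III, and was listed at 0.480 and 0.0741 FPKM. It had the largest relative difference of the 7 and the lowest level. Of the 7 copies, only *Gm13341* matches a gene that is itself in the table.

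Nuclear genes supply most proteins of mitochondria, including those that transcribe, process and translate the mitochondrial RNAs. The lists of such genes, together with a list of stress response genes, had few rows in the table, 3 of 362 genes (0.829%). Of these 3 rows, 2 come from the stress response list. For comparison, 395 of 55499 annotated nuclear genes (0.712%) and 329 of 22015 nuclear protein-coding genes (1.49%) had a row. There were 0 of 88 nuclear genes for respiratory chain and ATP synthase subunits, 0 of 79 genes of the mitochondrial ribosome, 0 of 44 genes for replication, transcription and RNA processing in mitochondria, such as *Polrmt*, *Tfam* and *Lrpprc*, and 0 of 27 genes for mitochondrial translation. There were also 0 of 14 regulators of mitochondrial biogenesis, 0 of 18 enzymes of the tricarboxylic acid cycle, and 0 of 30 genes of mitochondrial dynamics, import and protein quality control. A gene without a row was not marked as changed, and its level was not analysed here. *Ndufa11b*, listed at 0.208 FPKM in QKI-ctrl and at 0 in QKI-cKO and named here after its values were seen, resembles a complex I subunit by its symbol but is annotated as a processed pseudogene.

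Of 47 genes for carriers of the mitochondrial inner membrane, 1 was in the table. *Slc25a24*, which exchanges ATP-magnesium for phosphate, was listed at 34.8 FPKM in QKI-ctrl and at 42.6 FPKM in QKI-cKO (log2 ratio 0.29), opposite in direction to the members. Of 15 stress response genes, 2 were in the table and both were lower, beside 42.7% of all rows. *Hmox1*, the inducible heme oxygenase, was listed at 571 and 432 FPKM, and *Stc2*, a secreted glycoprotein, at 5.004 and 3.39 FPKM.

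Markers of cell state were in the table as well, and their counts stand beside the shares given above, 1.49% of protein-coding genes with a row and 42.7% of rows lower. The markers were chosen with earlier results of these data known, so their counts cannot show enrichment over these shares. Of 7 markers of differentiating muscle, 4 had a row and all 4 were lower in QKI-cKO, among them *Mylpf*, a light chain of fast muscle myosin, from 15.3 to 5.90 FPKM. Of 9 markers of MuSCs and myoblasts, 3 had a row, with *Itga7* and *Vcam1* lower and *Hes6* higher. Of 7 leukocyte markers, only *Laptm5* had a row, at 12.9 FPKM in QKI-ctrl and at 19.9 FPKM in QKI-cKO, and there was 0 of 4 for endothelial and 0 of 4 for fibro-adipogenic cells. In bulk RNA, fewer cells of a type and less RNA per cell cannot be told apart, and the part of cell state in the difference of the mitochondrial genes was not tested.

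Because the deleted protein binds RNA, the members were also searched for its response element, on the transcript strand. The core is ACTAAC or ACTAAT in DNA letters, and the whole element adds TAAC or TAAT after a gap of 1 to 20 bases. The core occurred 3 times in *mt-Rnr2*, 2 times in *mt-Nd1* and 2 times in *mt-Co2*. Among nuclear transcripts within 10% of the same length, 28.3%, 18.8% and 11.6% held at least 1 core. The whole element occurred 1 time in *mt-Rnr2*, 2 times in *mt-Nd1* and 1 time in *mt-Co2*. Of nuclear transcripts of like length, 4.29%, 2.34% and 1.47% held at least 1 whole element. A number of sites in a gene and a share of transcripts are unlike measures, so they give no enrichment. The sites in the members, with both parts in capitals, are the following.
mt-Rnr2 (chrM:1288-1308): ACTAACtagaaaacttcTAAC
mt-Nd1 (chrM:3435-3451): ACTAACattattcTAAT
mt-Nd1 (chrM:3519-3532): ACTAACttcaTAAT
mt-Co2 (chrM:7093-7113): ACTAATaattgttttccTAAT

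Matches were not limited to the members. Of the 15 mitochondrial genes for proteins and rRNAs, 12 held the core and 6 the whole element, and *mt-Nd4*, which has no row, held 12 cores and 6 whole elements. The A and T content of the 15 genes was 58.9% to 68.1%, beside a median of 50.8% in nuclear transcripts. The part of base composition in the number of matches was not tested, and a match of letters does not show binding.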

How the data were processed

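Polyadenylated RNA of cultured MuSCs was sequenced in 3 QKI-ctrl and 3 QKI-cKO libraries with paired reads of 100 bases and a stranded kit. The authors removed adaptors with Trimmomatic 0.39, aligned reads with STAR 2.7 to mm10/GRCm38 and used the Cufflinks suite (2.2.1). The deposited FPKM values were scaled by the authors on geometric means of the libraries' fragment counts, and 1 value per gene and group was deposited. All 398 rows are marked as changed. The deposited columns of fold changes, test statistics, p-values and q-values are the authors' own comparison and were not used. There were 0 unused columns of single samples. Samples were grouped by the labels, and the value columns, which name no group, were assigned as described above.

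The log2 ratio of the FPKM values, without a pseudocount, and counts by direction were computed with Python 3.11.15, pandas 2.3.3 and numpy 2.4.6. No test was possible with 1 value per group. All 398 gene IDs matched GENCODE M21 on GRCm38 without their version. The mitochondrial chromosome was rebuilt from its annotated transcripts, and all annotated transcripts were aligned to it with blastn 2.17.0 (E-value limit 1e-10). The design foresaw a search of the genome, but annotated transcripts were searched instead, a choice made after seeing the files, so that copies without annotation were not analysed here. The window search was tested on simulated sequence. Plots were drawn with matplotlib 3.10.9.

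Named genes were all members, all rows that align to the mitochondrial genes and all rows of the mitochondrial lists. The 5 highest rows in QKI-ctrl, the 3 non-member rows closest to each member in log2 ratio, and *Qk* were named too. Rows above 100 FPKM were named after their values were seen. A further row of this kind is not reported here. Members and lists were chosen with earlier results of these data known. Alternatives were pseudocounts, subtraction of the median, limits on FPKM and fold, alignment limits and window lengths.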

Additional observations from a re-analysis of the deposited data

How the results depend on the processing

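No paired analysis was possible because the columns hold 1 pooled value per group, and for the same reason no replicate could be left out. With the median log2 ratio of the 394 rows above 0 in both groups (0.37) subtracted, the log2 ratios were -0.73 for *mt-Rnr2*, -0.73 for *mt-Nd1* and -0.96 for *mt-Co2*. That median is of changed genes only. With pseudocounts of 0.1 and 1 FPKM, *mt-Co2* had -0.59 and -0.54, while the other members kept their values to 2 decimals. At a limit of 1.5-fold, 1 of the 3 members and 106 rows of the table were lower. At 1.2-fold all 3 members and 170 rows were lower. No lower row fell by less than 1.2-fold, so that limit could not change the counts. In alternatives added after seeing the data, 0 members and 48 rows were lower by 1.5-fold with a pseudocount of 1 FPKM. With the median subtracted, another such alternative, 3 members and 170 rows were, which is every lower row. Where either group reached 1 FPKM, 142 of 342 rows (41.5%) were lower, and without the mitochondrial genes and their copies, an alternative added after seeing the data, 160 of 388 (41.2%). Alignment limits gave 6 copies in the table at 95% identity and 7 at 80% identity or with 80% of the transcript covered, all lower in each case. With windows of 50 bases, 1.04% of windows of *mt-Rnr2*, 0 of *mt-Nd1* and 100% of *mt-Co2* had an exact copy. Of the nuclear lists, 3 rows remained with at least 1 FPKM. Depth is unknown, so the precision of low values such as those of *mt-Co2* and the copies cannot be given.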
